A study of Mus musculus with 18 samples.

Results

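The 5 genes Mpo, Elane, Ctsg, Prtn3 and Plac8 were followed across stem and progenitor cells of mouse bone marrow. They were chosen by name, as the rows of the deposited expression table that carry these symbols, and each symbol had 1 row among 14419 genes. Cells were sorted from adult male C57BL/6 mice that received tamoxifen, a drug that modulates estrogen receptors selectively by tissue, or its corn oil vehicle. The sorted populations were multipotent progenitors (MPP), taken after 1 week of tamoxifen or of oil, and long-term (LT) and short-term (ST) haematopoietic stem cells, taken after 2 weeks of tamoxifen or of oil. Each of the 6 groups held 3 RNA-seq libraries, 18 in all, which the design text calls biological replicates. No source used here gives the sort's antibodies and gates, the dose, or how many mice stood behind a library. MPP libraries differ from LT and ST libraries in duration as well as in population, and these cannot be told apart.

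Primary (azurophil) granules are the first granules formed by precursors of neutrophils and monocytes. Myeloperoxidase, the product of Mpo, uses hydrogen peroxide to make hypochlorous acid, and neutrophil elastase (Elane), cathepsin G (Ctsg) and proteinase 3 (Prtn3) are serine proteases stored beside it. Transcription of these genes is high in granulocyte-monocyte progenitors, falls as neutrophils mature, and is driven by factors such as PU.1, C/EBP family members, MYB and RUNX1. Plac8 encodes a small cysteine-rich protein of immune cells and early myeloid progenitors and is not a granule protein.

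The promoters are shown because the 4 granule genes are textbook targets of the same myeloid factors. In the RefSeq promoter table for GRCm38.p6 all 5 genes had an entry. Each line gives the 250 bases before the RefSeq start, 5′ to 3′ on the strand of the gene, with capitals on each match to GAGGAA, a core bound by ETS factors such as PU.1, on either strand. Mpo lies at chr11:87793534-87793783 on the plus strand, Elane at chr10:79886062-79886311 on the plus strand, Prtn3 at chr10:79879417-79879666 on the plus strand, Ctsg at chr14:56102575-56102824 on the minus strand and Plac8 at chr5:100572206-100572455 on the minus strand.
Mpo: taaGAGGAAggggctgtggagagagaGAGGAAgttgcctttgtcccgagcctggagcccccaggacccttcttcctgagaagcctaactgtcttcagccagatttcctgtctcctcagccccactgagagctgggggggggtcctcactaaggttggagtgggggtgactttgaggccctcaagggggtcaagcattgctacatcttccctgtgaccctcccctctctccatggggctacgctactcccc
Elane: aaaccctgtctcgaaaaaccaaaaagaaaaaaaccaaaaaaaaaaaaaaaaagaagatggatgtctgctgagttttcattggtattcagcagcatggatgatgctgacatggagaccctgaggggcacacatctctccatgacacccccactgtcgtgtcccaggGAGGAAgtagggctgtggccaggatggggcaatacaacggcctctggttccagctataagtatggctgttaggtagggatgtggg
Prtn3: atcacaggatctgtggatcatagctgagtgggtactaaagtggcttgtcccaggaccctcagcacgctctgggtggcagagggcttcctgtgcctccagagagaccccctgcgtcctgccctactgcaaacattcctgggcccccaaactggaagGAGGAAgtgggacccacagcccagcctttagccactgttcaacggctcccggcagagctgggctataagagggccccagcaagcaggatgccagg
Ctsg: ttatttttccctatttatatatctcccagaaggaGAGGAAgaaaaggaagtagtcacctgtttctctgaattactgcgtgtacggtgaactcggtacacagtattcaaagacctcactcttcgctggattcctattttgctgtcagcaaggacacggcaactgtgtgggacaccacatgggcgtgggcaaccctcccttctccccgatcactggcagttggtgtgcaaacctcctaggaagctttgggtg
Plac8: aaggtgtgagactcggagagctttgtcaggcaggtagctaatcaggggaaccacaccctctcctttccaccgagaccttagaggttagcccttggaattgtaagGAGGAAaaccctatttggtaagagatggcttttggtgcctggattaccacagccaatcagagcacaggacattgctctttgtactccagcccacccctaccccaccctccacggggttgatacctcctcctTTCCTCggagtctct

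GAGGAA was found in each of these 5 windows, against 23.3% of 32851 mouse promoters of the same length. In Prtn3 it stood 95 to 90 bases before the start and in its neighbour Elane 85 to 80 bases before, while Mpo had 2 matches, the nearer 224 to 219 bases before. In Ctsg it lay 216 to 211 bases before the start. These distances hold for the RefSeq starts only. In the GENCODE annotation of GRCm38 the Mpo gene begins at 87793581, inside its printed window. The Prtn3 gene begins there at 79874476, ahead of its window. Plac8 had 1 match on the coding strand and 1 on the other strand (printed TTCCTC), and its second RefSeq start had none. The other letters searched, on both strands, were TTNNGNAA (C/EBP type, 36.8% of promoters), TGTGGT (RUNX type, 14% of promoters) and AACNG (MYB type, 74.2% of promoters). TTNNGNAA was in the Plac8 window, TGTGGT in those of Ctsg and Plac8, and AACNG in those of Mpo, Elane, Ctsg and Prtn3. No 2 matches of different motifs overlapped in these windows.

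Values below are the deposited normalised values on a linear scale, in which 1 read was worth 0.203 to 0.331 depending on the library. The libraries held 2728800 to 5279821 reads in the listed genes. Mitochondrial ribosomal RNA took 25.5% of the reads in LT tamoxifen library A and 24.4% in ST tamoxifen library A, against 17.7% to 22.2% in the others. As a check of the labels, of 12 long-term stem cell genes, 7 were lower in ST than in LT cells and 11 were lower in MPP than in LT cells under oil (limma, adjusted p below the threshold of 0.05). Of all genes, 16% and 7.01% were called lower in these comparisons. These 12 were listed with earlier results of these data known, and Slamf1 and Procr are surface genes used to sort stem cells. The check may therefore be partly decided in advance. Fewer cells of a type and less RNA per cell cannot be told apart in such bulk libraries.

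Under oil the 5 genes were lowest in LT cells. All 5 were higher in ST than in LT cells, where 28.5% of all genes tested were called and 12.5% were called higher. Ctsg stood at 177, 168 and 96.0 in ST oil libraries A to C, against 2.61, 4.44 and 1.25 in LT oil libraries, a log2 difference of 5.34 ± 0.54 (SE, limma adjusted p = 8.37e-06). Elane followed with 154, 224 and 142 in ST oil against 1.35, 6.60 and 4.32 in LT oil (log2 difference 5.23 ± 0.58, limma adjusted p = 2.82e-05). Mpo, already at 97.2, 99.5 and 82.3 in LT oil libraries, differed by 3.55 ± 0.41 (limma adjusted p = 4.19e-05). Plac8 differed by 2.87 ± 0.24 (limma adjusted p = 3.95e-08) and Prtn3 by 2.08 ± 0.48 (limma adjusted p = 0.0058). ST and LT oil libraries overlapped in none of the 5 genes, while 44.2% of all genes did not overlap and 21.4% lay higher without overlap.

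MPPs stood between these populations for most of the genes. MPP oil libraries were higher than LT oil libraries in 4 of the 5 genes, where 14.8% of all genes were called and 7.76% were called higher. These were Mpo (log2 difference 3.09, limma adjusted p = 0.000178), Elane (3.28, 0.00161), Ctsg (2.66, 0.00348) and Plac8 (1.78, 1.51e-05), while Prtn3 did not pass (0.71, 95% interval -0.33 to 1.75, adjusted p = 0.415). Against ST oil, 4 of the 5 were lower in MPP oil, where 30.7% of all genes were called and 13.9% were called lower. Ctsg was lower by a log2 difference of -2.67 (limma adjusted p = 0.00197), Elane by -1.95 (0.023), Prtn3 by -1.37 (0.0465) and Plac8 by -1.09 (0.00176). Mpo averaged 811 ± 198 in MPP oil and 1099 ± 133 in ST oil (SD, n = 3 each), and this difference did not pass (log2 -0.46, 95% interval -1.36 to 0.44). The 3 comparisons share their oil libraries. Elane lost the call against ST oil without MPP oil library 1 (limma adjusted p = 0.0852), MPP oil library 2 (0.0578) or ST oil library B (0.0786). Prtn3 lost it without MPP oil library 1 (0.119), MPP oil library 2 (0.142), ST oil library A (0.119) or ST oil library B (0.128), and with a pseudocount of 0.5 (0.0517).

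**Figure D1:**
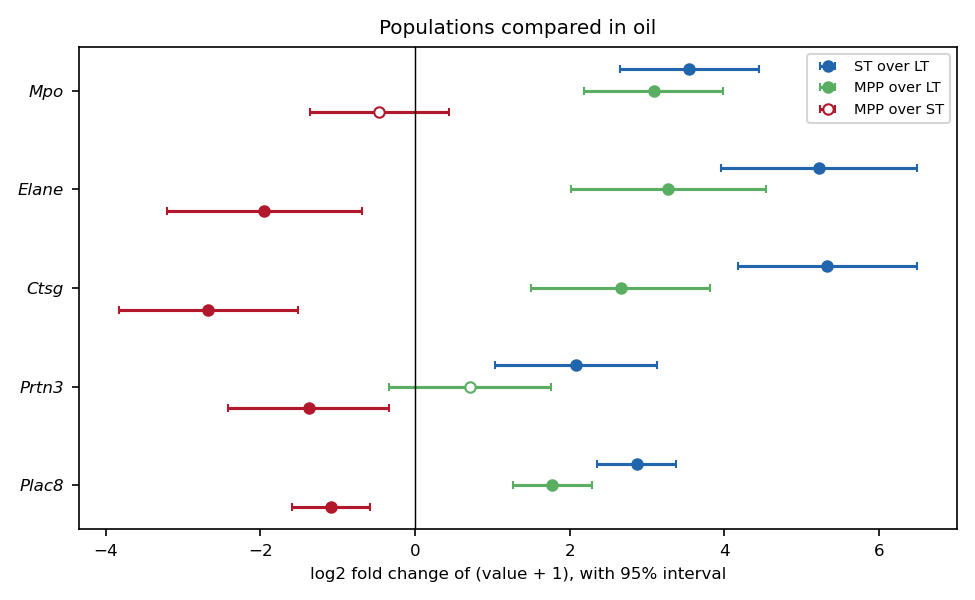
Log2 differences between populations under oil for each gene, on the log2(value + 1) scale, with 95% intervals from limma. Filled points passed the adjusted threshold of 0.05. All 5 genes were higher in ST than in LT cells, and Mpo in MPP against ST cells and Prtn3 in MPP against LT cells are open.

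Per kilobase of the longest coding transcript in the GENCODE annotation of GRCm38, the order of the genes was not the same in each population. In ST oil the level per kilobase was 399.6 ± 48.4 for Mpo, 176 ± 44.7 for Elane, 146 ± 44.2 for Ctsg, 123 ± 21.2 for Plac8 and 98.4 ± 24.2 for Prtn3 (SD, n = 3). The last 4 lie within each other's spread at each step of this order. In LT oil Mpo led with 33.8 ± 3.39, followed by Prtn3 at 22.3 ± 4.94 and Plac8 at 16.4 ± 4.10, while Elane at 4.16 ± 2.67 and Ctsg at 2.76 ± 1.60 came last. Among all genes by mean value, Mpo ranked 13 in ST tamoxifen, 41 in MPP tamoxifen, 42 in ST oil and 68 in MPP oil, but 7118 in LT tamoxifen and 2004 in LT oil.

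After 2 weeks of tamoxifen, Mpo fell in LT cells. It stood at 17.99, 25.5 and 15.8 in LT tamoxifen libraries A to C, against 97.2, 99.5 and 82.3 in LT oil libraries. Every tamoxifen library lay below every oil library, and the means were 19.8 ± 5.11 and 93.0 ± 9.33 (SD, n = 3 each), from 201 and 1130 reads. The log2 fold change was -2.20 ± 0.41 (SE, 95% interval -3.10 to -1.30, limma adjusted p = 0.0453). It was the only one of the 5 genes past the threshold in LT cells, where 0.416% of all genes were called and 0.277% were called lower. The call was lost without LT oil library A (adjusted p = 0.139), B (0.12) or C (0.138), and without LT tamoxifen library A (0.0959) or C (0.0898), with a pseudocount of 4 (0.0545) and with edgeR on the recovered reads (0.0758). The log2 fold change was -2.39 to -2.05 over all alternatives, with adjusted p from 2.84e-08 to 0.139. The lowest came from limma without the 6 MPP libraries, a fit added after seeing the data. Among the alternatives planned before, the lowest was 0.000257, with DESeq2.

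In ST cells Mpo values were higher with tamoxifen but did not pass over all genes. The ST tamoxifen libraries stood at 2008, 2131 and 2393, against 945, 1185 and 1166 in ST oil libraries, so that the groups did not overlap. The log2 fold change was 0.99 ± 0.41 (95% interval 0.09 to 1.89, limma adjusted p = 0.159). None of the 5 genes passed in ST cells, where 9.61% of all genes were called. The adjusted p of Mpo was 0.000203 when the 2 ST groups were fitted alone, 0.00225 without MPP tamoxifen library 3, and 0.00145 without the 6 MPP libraries. The last pair of fits was chosen after seeing the data.

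MPP tamoxifen libraries 1 to 3 held Mpo at 499.6, 750.5 and 2258, against 623, 791 and 1018 in MPP oil libraries. Library 3 was above all oil libraries, library 1 below all of them, and the groups overlapped. The log2 fold change was 0.25 ± 0.41 (limma adjusted p = 0.994), and without library 3 it was -0.38. None of the 5 genes passed in MPPs, where 0.0555% of all genes were called, and none separated the groups, against 14.9% of all genes.

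**Figure D2:**
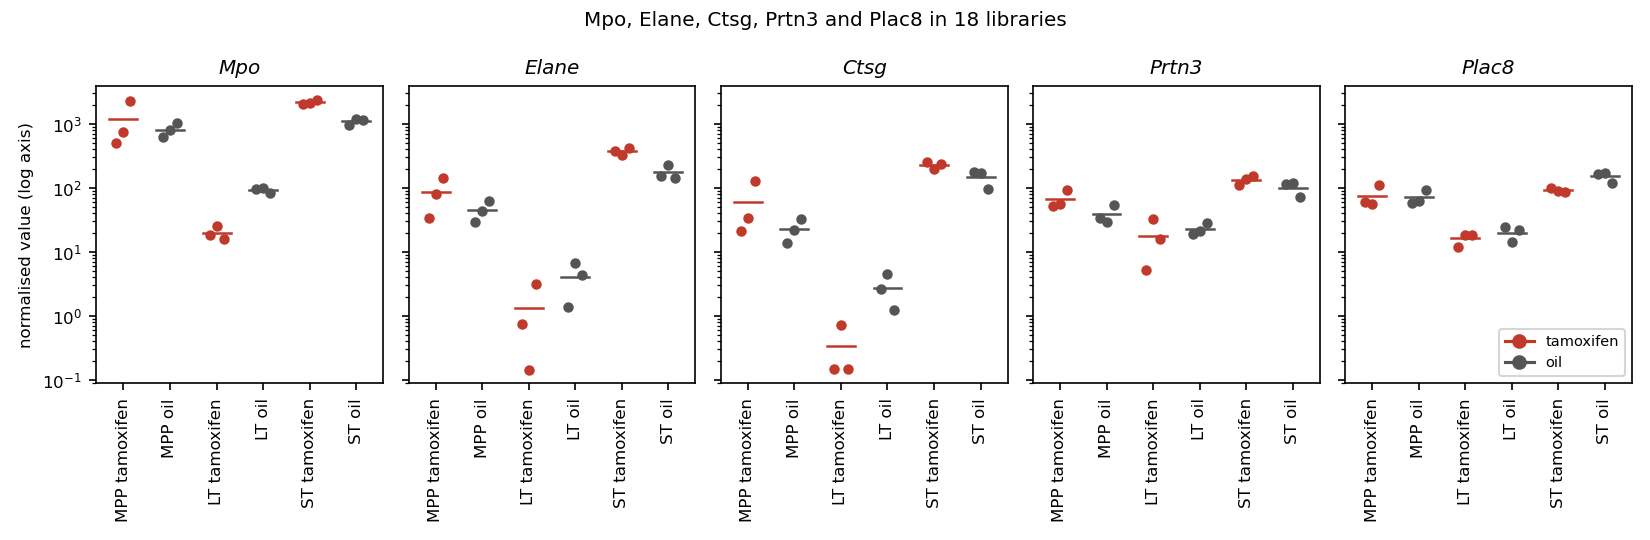
Normalised value of each gene in every library on a log axis, with tamoxifen libraries in red left of oil libraries in grey and a bar at the mean of 3. Mpo in LT cells separates into 15.8 to 25.5 with tamoxifen and 82.3 to 99.5 in oil, and points near 0.15 are libraries with 0 reads.

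The other 4 genes did not pass in LT cells, and the reads of Ctsg and Elane were few. Prtn3 had 182 reads there with tamoxifen and 270 in oil, and Plac8 had 164 and 245. Ctsg had 0, 2 and 0 reads in LT tamoxifen libraries A to C (values 0.149, 0.713 and 0.15, in which 0.5 read is added to every count), against 12, 16 and 4 reads in LT oil libraries (2.61, 4.44 and 1.25). A count of 0 allows up to 3 reads, a value of 0.892 in library A and 0.902 in library C before the 0.5 read is added. On summed reads tamoxifen over oil was 0.0742 (exact 95% counting interval 0.00862 to 0.291). All tamoxifen libraries lay below all oil libraries, and the log2 fold change on the log2(value + 1) scale was -1.43 ± 0.54 (limma adjusted p = 0.252). With Mpo, this made 2 of the 5 genes lying wholly lower with tamoxifen in LT cells, where 18.4% of all genes did not overlap and 9.36% lay lower. The LT call of Ctsg was made with DESeq2 (0.0427). It was also made without MPP tamoxifen library 3 (0.0484) and without the 6 MPP libraries (0.0474), fits added after seeing the data.

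Elane had 2, 0 and 10 reads in LT tamoxifen libraries, against 6, 24 and 15 in LT oil libraries. These correspond to 0.744, 0.143 and 3.16 with tamoxifen and to 1.35, 6.60 and 4.32 in oil, and the groups overlapped through LT tamoxifen library C. The ratio on summed reads was 0.317 (exact 95% counting interval 0.152 to 0.609), and the log2 fold change was -1.17 ± 0.58 (limma adjusted p = 0.414). Prtn3 stood at 5.20, 32.1 and 16.1 with tamoxifen, against 18.9, 21.1 and 28.6 in oil. Its tamoxifen libraries enclosed the oil libraries, with a log2 fold change of -0.63 ± 0.48 (adjusted p = 0.626) that was 0.017 when LT tamoxifen library A, which had the highest mitochondrial ribosomal share, was left out.

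In ST cells the serine proteases had higher values with tamoxifen, none past the threshold. Elane stood at 370, 326 and 415 in ST tamoxifen libraries, against 154, 224 and 142 in ST oil libraries. The groups lay apart, with a log2 fold change of 1.11 ± 0.58 (95% interval -0.15 to 2.38, limma adjusted p = 0.26). Ctsg stood at 249, 196 and 235 with tamoxifen, against 177, 168 and 96.0 in oil, again without overlap (log2 fold change 0.67 ± 0.54, limma adjusted p = 0.486). Prtn3, at 111, 138 and 153 with tamoxifen and 113, 117 and 72.3 in oil, overlapped (0.43 ± 0.48, limma adjusted p = 0.632). Fitted on the ST libraries alone, Elane (0.000254) and Ctsg (0.0355) passed.

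MPPs showed wide spread in the same proteases. Elane stood at 33.4, 80.2 and 143 in MPP tamoxifen libraries 1 to 3, against 29.6, 44.0 and 62.2 in MPP oil libraries. Ctsg stood at 21.2, 34.1 and 127 with tamoxifen, against 13.6, 21.9 and 32.3 in oil. Prtn3 stood at 51.9, 55.2 and 92.3 with tamoxifen, against 33.4, 29.1 and 54.0 in oil. In each of the 3 genes library 3 was the highest MPP library, and the lowest tamoxifen library lay within the range of oil. The log2 fold changes were 0.74 ± 0.58 for Elane, 1.05 ± 0.54 for Ctsg and 0.76 ± 0.48 for Prtn3 (limma adjusted p = 0.911 to 0.959).

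Plac8 values in ST cells were lower with tamoxifen, without passing the threshold. It stood at 98.4, 88.1 and 86.7 in ST tamoxifen libraries, against 162, 169 and 121 in ST oil libraries. All tamoxifen libraries lay below all oil libraries, and the log2 fold change was -0.71 ± 0.24 (95% interval -1.21 to -0.20, limma adjusted p = 0.0696). Plac8 passed without ST oil library C (0.0479), with quantile normalisation (0.0186), with DESeq2 (0.0271) and in the ST groups alone (0.00574). It also passed without MPP tamoxifen library 3 (0.0287), a fit added after seeing the data. Counted with Mpo, Elane and Ctsg, 4 of the 5 genes did not overlap in ST cells, 3 higher and 1 lower, where 27% of all genes did not overlap, 14.8% higher and 12.2% lower. In LT cells Plac8 stood at 11.7, 18.4 and 18.5 with tamoxifen and 24.1, 14.4 and 21.6 in oil (log2 fold change -0.29 ± 0.24, limma adjusted p = 0.664). In MPPs it stood at 59.2, 56.1 and 111 with tamoxifen and 58.2, 62.3 and 92.8 in oil (0.04 ± 0.24, adjusted p = 0.997).

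**Figure D3:**
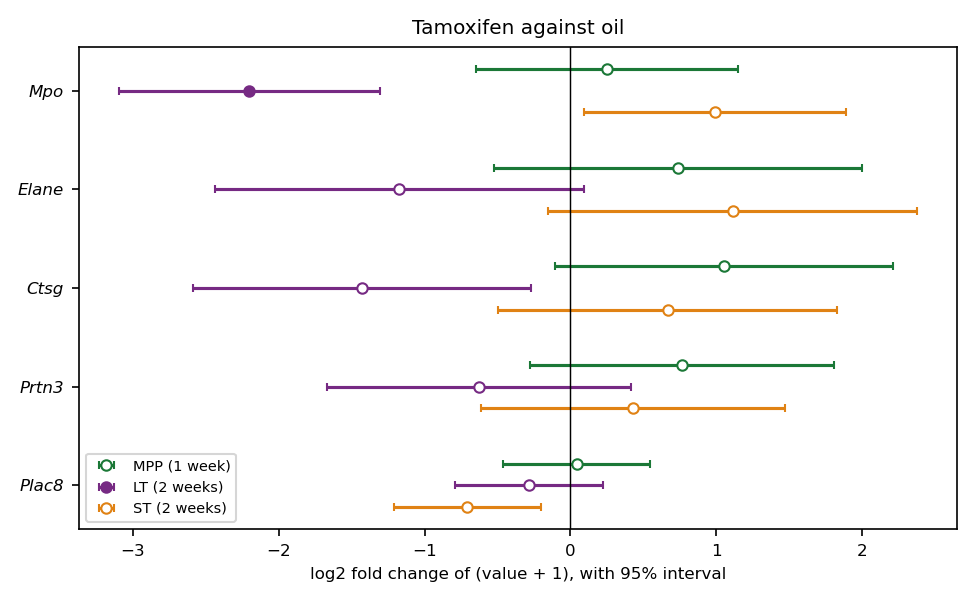
Log2 fold change of tamoxifen over oil in MPP, LT and ST cells for each gene, on the log2(value + 1) scale, with 95% intervals from limma. The only filled point, which passed the adjusted threshold, is Mpo in LT cells at -2.20, and Plac8 in ST cells lies at -0.71 while the granule genes there lie above 0.

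The difference between the tamoxifen effects in ST and LT cells was tested itself and did not pass for any of the 5 genes, where 0.0555% of all genes were called. For Mpo it was 3.19 ± 0.58 on the log2 scale (95% interval 1.92 to 4.46, limma adjusted p = 0.0697). The alternatives under which it passed included library weights (0.0415), DESeq2 (0.000659) and the LT and ST groups alone, which leaves out the 6 MPP libraries (1.72e-08). It also passed without MPP tamoxifen library 3 (3.62e-07), a fit added after seeing the data. For Elane the difference was 2.29 ± 0.82 (0.269), for Ctsg 2.09 ± 0.76 (0.268), for Prtn3 1.06 ± 0.68 (0.544) and for Plac8 -0.42 ± 0.35 (0.64). MPP minus LT effects were 2.45 ± 0.58 for Mpo (0.63) and 2.48 ± 0.76 for Ctsg (0.788), where 0% of all genes were called by limma and 1860 had an unadjusted p below 0.05, or 14 by DESeq2. Without MPP tamoxifen library 3 the Mpo value passed (0.0156). MPP minus ST effects were -0.74 ± 0.58 for Mpo (0.656) and 0.75 ± 0.35 for Plac8 (0.393). None of the 5 genes passed there either, where 0.00694% of all genes were called.

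Each gene's value was also taken in percent of the Mpo value of the same library, not corrected for length. Elane was 15.3% to 18.4% of Mpo in ST tamoxifen libraries and 12.2% to 18.9% in ST oil libraries, but 6.33% to 10.7% in MPP tamoxifen and 4.75% to 6.11% in MPP oil libraries. In MPPs the tamoxifen and oil ranges did not overlap, and for Ctsg they were 4.25% to 5.63% with tamoxifen and 2.19% to 3.18% in oil. Plac8 was 3.62% to 4.90% of Mpo in ST tamoxifen libraries, against 10.4% to 17.1% in ST oil libraries. In LT cells Plac8 was 65.3% to 117% of Mpo with tamoxifen, against 14.5% to 26.2% in oil, and Prtn3 was 28.9% to 126% with tamoxifen, against 19.4% to 34.7% in oil. Each ratio also moves with Mpo itself, which in LT cells averaged 19.8 with tamoxifen and 93.0 in oil. These ratios were not tested.

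**Figure D4:**
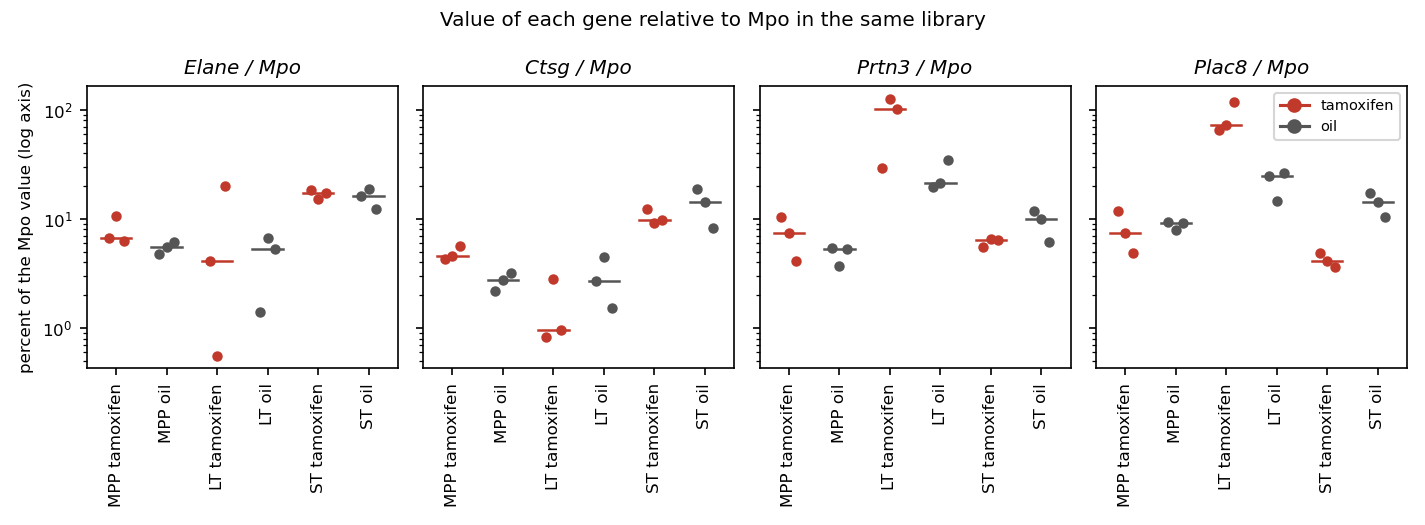
Value of Elane, Ctsg, Prtn3 and Plac8 in percent of the Mpo value of the same library on a log axis, with tamoxifen libraries in red left of oil libraries in grey and a bar at the median. Plac8 relative to Mpo is 3.62% to 4.90% in ST tamoxifen and 10.4% to 17.1% in ST oil libraries, and 65.3% to 117% in LT tamoxifen and 14.5% to 26.2% in LT oil libraries.

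Across all 18 libraries the log2 values of the 5 genes varied together, with Pearson r from 0.87 (Mpo with Prtn3) to 0.976 (Elane with Ctsg). Libraries of 1 group share a population and a treatment, and depth differed between libraries. Around the group means the correlation was 0.865 for Mpo with Ctsg, 0.533 for Elane with Ctsg and 0.214 for Elane with Prtn3, the adjacent pair.

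Among 6682 other genes with a mean above the median gene, Ly6c2, a surface antigen gene of monocytes and their progenitors, was among the 3 most alike for Mpo (Pearson r 0.971 over 18 libraries), Elane (0.978) and Ctsg (0.982). It averaged 0.537 ± 0.153 in LT tamoxifen and 2.16 ± 0.823 in LT oil, 61.3 ± 11.7 in ST tamoxifen and 53.7 ± 9.70 in ST oil, and 31.9 ± 11.9 in MPP tamoxifen and 16.6 ± 1.75 in MPP oil (SD, n = 3 each). The closest to Mpo was Atp8b4 (0.981), which encodes a phospholipid flippase subunit. It stood at 5.74 ± 0.153 in LT tamoxifen and 23.9 ± 4.37 in LT oil (log2 fold change -1.87, limma adjusted p = 0.000608). Clec12a (0.971), an inhibitory receptor of myeloid cells, was the other gene for Mpo, Arhgdib (0.944) and the Rab GTPase gene Rab44 (0.943) those for Elane, and Rab44 (0.974) and Igsf6 (0.953) those for Ctsg. For Prtn3 they were Miip (0.951), Alox5ap (0.93), needed for leukotriene synthesis, and Skap2 (0.928). For Plac8 they were Gmfg (0.969), the adaptor gene Tyrobp (0.968) and Cd48 (0.966). Of these, Gmfg fell in ST cells, to 132 ± 14.7 with tamoxifen against 206 ± 16.7 in oil (log2 fold change -0.64, limma adjusted p = 0.00381). Atp8b4 and Gmfg were picked for likeness to Mpo and Plac8 over the same 18 libraries. Their calls are therefore not independent of the values of Mpo and Plac8. Around the group means the correlations of the genes most alike were lower. They ran from 0.177 (Elane with Arhgdib) to 0.854 (Ctsg with Rab44).

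Genes for making, storing and inhibiting granule proteases were set beside the 5 genes. Of 20 such genes, 3 rose in ST cells and none fell, where 6.01% of all genes were called higher, and the median log2 fold change was 0.23 against 0.01 over all genes. They were the folding chaperones of the endoplasmic reticulum Canx (535 ± 52.8 with tamoxifen, 323 ± 68.5 in oil, limma adjusted p = 0.000989) and Calr (408 ± 9.47 and 263 ± 30.0, 0.00304), and Ap3b1, an adaptor subunit for sorting to lysosome-related organelles (239 ± 20.5 and 169 ± 12.4, 0.0429). None of the 20 passed in LT cells (median -0.07) or in MPPs (median 0.02). In LT cells Serpinb1a, an inhibitor of elastase, proteinase 3 and cathepsin G, had the smallest p, at 21.95 ± 4.38 with tamoxifen and 37.0 ± 12.6 in oil (adjusted p = 0.106), and in MPPs it was Slpi, another inhibitor (6.89 ± 1.53 and 2.80 ± 2.77, 0.523).

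Other granule and lysosomal contents gave 1 call among the 18 of 20 listed genes that the table held. Arsb, a lysosomal sulfatase, rose in ST cells (45.0 ± 8.44 with tamoxifen, 26.3 ± 1.69 in oil, limma adjusted p = 0.0202), where the list's median log2 fold change was 0.29. Over all genes, 6.01% were called higher in ST cells, so 1 call is near that share. None passed in LT cells (median -0.28) or MPPs (median 0.18). The medians over all genes were -0.02 in LT cells and -0.00014 in MPPs.

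Of 16 transcription factors that act on granule genes or on granulocyte-monocyte fate, Gfi1, a repressor needed for neutrophils, fell in LT cells, to 5.19 ± 2.97 with tamoxifen against 12.1 ± 2.93 in oil (limma adjusted p = 0.0472). Cbfb, the partner of RUNX proteins, rose in ST cells (164 ± 25.7 with tamoxifen, 115 ± 6.72 in oil, 0.0127). Over all genes, 0.277% were called lower in LT cells and 6.01% higher in ST cells. No other of the 16 passed in LT or ST cells, and none passed in MPPs, where Id2 had the smallest p (3.62 ± 0.837 and 1.32 ± 0.152, 0.726). The medians were -0.02 in LT cells, 0.16 in ST cells and 0.04 in MPPs.

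Receptors and early genes of granulocyte-monocyte progenitors had their lowest summed level under oil in LT cells (835 to 969 in ST, 956 to 1119 in MPP and 262 to 359 in LT cells). Of 18 such genes, 14 were higher and none lower in ST than in LT cells, and 15 were higher and none lower in MPP than in LT cells (limma), where 12.5% and 7.76% of all genes were called higher. With tamoxifen, Anxa3, an annexin gene of neutrophils, rose in ST cells (29.2 ± 10.8 with tamoxifen, 10.7 ± 3.80 in oil, limma adjusted p = 0.0154), with a list median of 0.23. In that comparison 6.01% of all genes were called higher. None of the 18 passed in LT cells (median -0.30) or MPPs (median 0.08). The smallest p was that of Ly6c2 in LT cells (adjusted p = 0.0804) and of Cd33 in MPPs (37.8 ± 8.95 and 77.4 ± 14.5, 0.519).

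**Figure D5:**
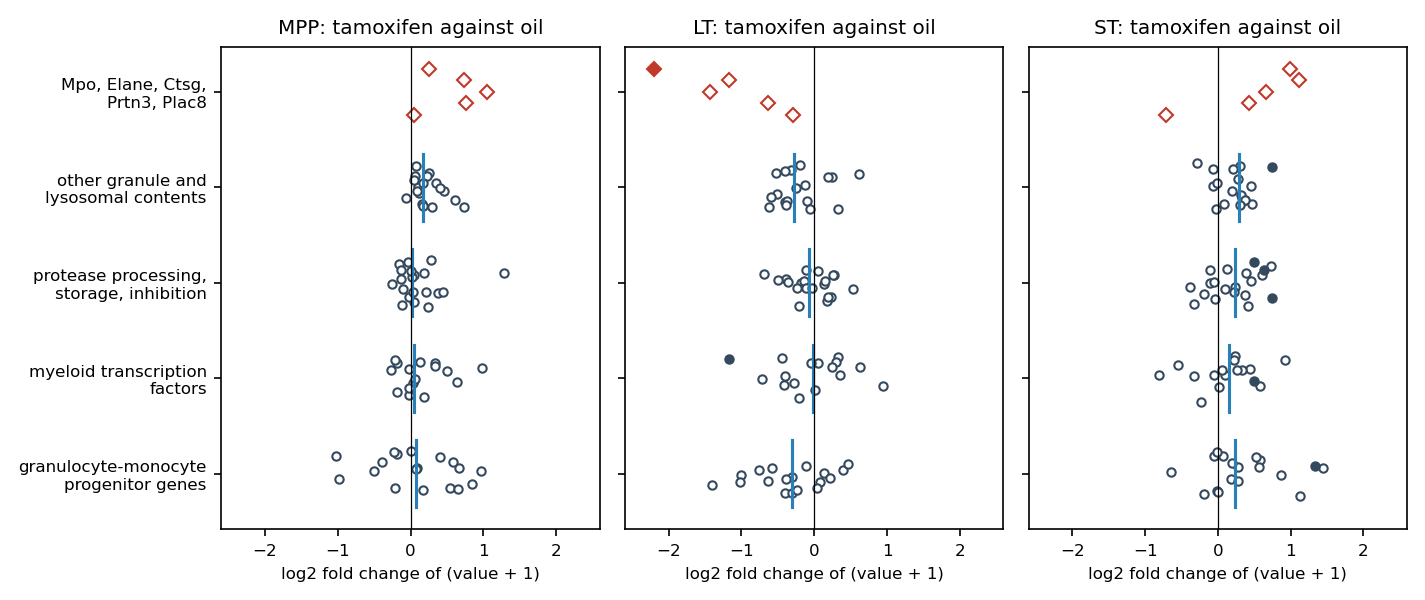
Log2 fold changes of tamoxifen over oil in MPP, LT and ST cells (x axis) for the 5 genes (diamonds, in the order Mpo, Elane, Ctsg, Prtn3, Plac8 from the top) and 4 lists (circles, blue bar at the list median). Filled symbols passed the adjusted threshold. The median of the progenitor list is -0.30 in LT and 0.23 in ST cells.

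Markers of other cells that a sort could hold were read beside these results, and their part in them was not tested. Of 13 mature neutrophil markers held, none passed in any tamoxifen comparison. Their summed level ranged from 44.8 to 94.9 in LT tamoxifen and from 64.5 to 121 in LT oil libraries, with 11 of 13 log2 fold changes below 0. It was 171 to 306 in ST tamoxifen and 165 to 359 in ST oil libraries, and 252 to 846 in MPP tamoxifen and 236 to 727 in MPP oil libraries. No marker of this list was at 0 reads throughout a group. MPP tamoxifen library 3, the highest MPP library in all 5 genes, had the lowest neutrophil sum of the MPP tamoxifen libraries (252), the highest sum of the 18 progenitor genes (1308, against 771 and 856 in libraries 1 and 2) and an eosinophil marker sum of 63.6, against 14.6 and 12.9.

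Of 14 monocyte markers, Vcam1 rose in ST cells (35.7 ± 1.78 with tamoxifen, 15.3 ± 3.89 in oil, limma adjusted p = 0.0238). The monocyte sums were 236 to 265 in ST tamoxifen and 151 to 166 in ST oil libraries, without overlap. There 13 of 14 log2 fold changes were above 0 (median 0.74). In LT cells the sums were 52.3 to 95.6 with tamoxifen and 64.3 to 80.0 in oil, with 7 of 14 log2 fold changes above 0. In MPPs they were 259 to 341 with tamoxifen and 206 to 248 in oil, without overlap. Of the MPP log2 fold changes 13 of 14 were above 0 (median 0.31), and MPP tamoxifen library 3 had the highest sum. Of 8 mast cell and basophil markers held, Cpa3 fell in ST cells (39.9 ± 18.03 with tamoxifen, 90.8 ± 19.6 in oil, 0.0126). The list did not fall with it, as 6 of the 8 log2 fold changes in ST cells were above 0 (median 0.55). Of 15 erythroblast markers 5 rose in ST cells, led by the erythroid genes Ermap (limma adjusted p = 0.00481), Klf1 (0.031) and Spna1 (0.0408), and Ermap rose in MPPs (0.0491). In ST cells 6.01% of all genes were called higher, and the erythroblast markers had sums of 934 to 1305 in ST tamoxifen and 627 to 841 in ST oil libraries. Their sums were higher in LT libraries, at 2420 to 3089 with tamoxifen and 2126 to 2615 in oil, with overlap. Among 8 surface genes used for sorting, Kit fell in LT cells (741 ± 52.6 with tamoxifen, 1086 ± 61.2 in oil, 0.0159) and no other passed. In LT cells 7 of the 8 had log2 fold changes below 0, with a median of -0.68, among them Cd34 (83.8 ± 33.0 with tamoxifen, 171 ± 46.6 in oil, limma adjusted p = 0.0573) and Flt3 (35.6 ± 20.3 and 83.1 ± 34.4, 0.159), both named after their values were seen. Their summed level was 925 to 1130 in LT tamoxifen and 1409 to 1665 in LT oil libraries, and 1855 to 1977 in MPP tamoxifen and 2158 to 2375 in MPP oil libraries, without overlap in either population. In ST cells it was 1033 to 1222 with tamoxifen and 1211 to 1564 in oil, with overlap. The part of these surface genes in the Mpo values was not tested. Among the markers of T and NK cells, of which 6 were held, the T cell receptor gene Trbc1 fell in LT cells (1.71 ± 0.623 with tamoxifen, 10.4 ± 0.988 in oil, 0.00222) and in ST cells (1.40 ± 0.215 and 6.70 ± 3.53, 0.0037). Of these 6 markers, 4 had log2 fold changes below 0 in LT cells (median -0.21) and 3 in ST cells (median -0.09). The platelet gene Ppbp, of 10 megakaryocyte markers held, rose in ST cells (3.92 ± 0.633 and 0.49 ± 0.341, 0.00633), and of 7 stromal and endothelial markers only Vcam1, also on the monocyte list, passed there. No eosinophil, B cell or plasmacytoid dendritic cell marker passed in a tamoxifen comparison by limma.

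The surroundings of the genes on the chromosomes were also read. Prtn3 and Elane are adjacent on chromosome 10 with no RefSeq gene between them. The nearest held genes on either side (Bzrap1 and Mks1 for Mpo, Med16 for Elane, BC005764, now named Plppr3, for Prtn3, Mcpt8 and Gzmb for Ctsg, Cops4 and Coq2 for Plac8) did not pass in any tamoxifen comparison. Med16 stood at 38.0 ± 9.58 in LT tamoxifen and 45.3 ± 1.23 in LT oil. Mcpt8 and Gzmb are serine protease relatives of Ctsg, and no source used here says how reads common to them were shared out. In the GENCODE annotation of GRCm38 the gene spans of Prtn3 and Plppr3 overlap by 159 bases on opposite strands. Gm11505, an antisense gene at Mpo, stood at 0.143 to 1.34 in LT tamoxifen and 0.673 to 3.20 in LT oil libraries (limma adjusted p = 0.583). The kit and the counting are not stated to use strand, so reads of such partners cannot be told apart.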

How the data were processed

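RNA-seq was done on sorted bone marrow MPP, LT and ST cells, 3 libraries in each of 6 groups. Per the labels' protocols, RNA came from the Picopure kit and Ovation RNA-Seq System V2 was used to amplify the cDNA. Per the submitters' processing notes, Picard, cutadapt, RSEM 1.17 and limma were used with build NCBIM37. No source used here gives the scaling, the annotation or the strand setting.

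The authors deposited a normalised signal for 14419 genes, each reaching 1 in at least 6 libraries. In every library 100% of the deposited values equalled whole reads plus 0.5, times 1 constant, within a tolerance of 0.001 read. These recovered reads, 2728800 to 5279821 per library, can be rounded RSEM estimates. Reads were amplified without molecular identifiers, so counting intervals (exact, 95%) and the limit of 3 reads for a count of 0 cover counting error only.

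Groups came from the titles and treatment labels. Values were tested as log2(value + 1), a scale that understates changes of low genes, with limma 3.58.1 (R 4.3.3, statmod 1.5.0): 18 libraries in 1 fit with 1 mean per group, trended and robust variances, and Benjamini-Hochberg adjustment over 14419 genes at 0.05. Compared were tamoxifen and oil within each population, the populations under oil, and differences between tamoxifen effects. The fit was tested on simulated data. Alternatives were other pseudocounts, a stricter filter on low values, quantile normalisation, other variance settings, only the groups compared, library weights, the replicate block, each library left out, and edgeR 4.0.16 and DESeq2 1.42.0 on the recovered reads. With these reads edgeR called 5, 58 and 1175 genes and DESeq2 28, 336 and 1491 in MPP, LT and ST cells, against 8, 60 and 1386 by limma. Leaving out the 6 MPP libraries, or MPP tamoxifen replicate 3 where MPPs were not compared, was added after seeing the data.

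The 5 genes and the gene lists were chosen with earlier results of these data known. Named genes were the 5 genes, the 3 most alike for each by Pearson correlation, up to 3 past the threshold from each list in each tamoxifen comparison (or the 1 with the smallest p), and the nearest held gene on each side. Sums of lists are sums of normalised values. Whether p-values reflect separate mice is not given beyond the words biological replicates. Same-numbered tamoxifen and oil libraries did not all correlate over 0.1 in any population, nor did same-letter ST and LT libraries under oil. The numbers were therefore not used as pairs in the main fit. Same-letter ST and LT libraries under tamoxifen did all correlate over 0.1, and the ST minus LT effect was fitted without pairing them.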

Additional observations from a re-analysis of the deposited data

How the results depend on the processing

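Of 840 values of the 5 genes under alternatives, 788 kept their direction and side of the threshold, 15 lost the call, 30 gained one and 7 reversed. The number of the 5 genes past the threshold in LT cells (1 by limma on log2(value + 1)) was 0 with a pseudocount of 4 or with edgeR, and 2 (Mpo and Ctsg) with DESeq2, with the replicate block, without the 6 MPP libraries or without MPP tamoxifen replicate 3, and leaving out 1 LT library gave 0 to 1. In ST cells (0) it was 1 with quantile normalisation, 4 with only the groups compared, 1 with DESeq2 and 2 with the replicate block, without the 6 MPP libraries or without MPP tamoxifen replicate 3, and 0 to 1 when 1 ST library was left out. Among all 14419 genes, LT calls (60) were 64 with a pseudocount of 4, 58 with edgeR, 336 with DESeq2 and 75 with the block. Without the 6 MPP libraries they were 34, without MPP tamoxifen replicate 3 65, and without 1 LT library 9 to 330. ST calls (1386) were 1160 with quantile normalisation, 1115 with only the groups compared, 1491 with DESeq2 and 1367 with the block. Those omissions gave 898 and 1345, and leaving out 1 ST library gave 654 to 1378. The number of the 5 genes for MPP against ST cells in oil (4) was 2 to 4 with 1 library left out. For the ST minus LT effect (0) it was 1 with only the groups compared, library weights, DESeq2, the 6 MPP libraries left out or MPP tamoxifen replicate 3 left out, and 2 with the replicate block (Mpo, adjusted p = 0.00115, and Ctsg, 0.0176). For the MPP minus LT effect (0) it was 1 with DESeq2 and 2 with the replicate block (Mpo, 0.0202, and Ctsg, 0.0179), and 0 to 1 when 1 library was left out. Among all genes, MPP against ST calls in oil (4430) were 3358 to 4213 with 1 library left out. ST minus LT calls (8) were 2 with only the groups compared, 99 with library weights, 157 with DESeq2 and 34 with the block. Without the 6 MPP libraries they were 2, and without MPP tamoxifen replicate 3 they were 8. MPP minus LT calls (0) were 14 with DESeq2, 9 with the block and 0 to 5 with 1 library left out. The cause was not tested.

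Some log2 values reversed, none of them past the threshold. Leaving out 1 library gave -0.38 to 0.71 for Mpo in MPPs (-0.38 without tamoxifen replicate 3), -0.27 to 0.25 for Plac8 in MPPs (-0.08 without oil replicate 1, -0.04 without oil replicate 2, -0.27 without tamoxifen replicate 3) and -1.19 to 0.017 for Prtn3 in LT cells (0.017 without tamoxifen replicate A). In the MPP minus ST effect it gave -0.86 to 0.18 for Elane (0.18 without MPP tamoxifen replicate 1) and -0.34 to 0.92 for Ctsg (-0.34 without MPP tamoxifen replicate 3). Under the replicate block the adjusted p was 0.000765 for Mpo and 0.0129 for Ctsg in LT cells, and 0.0139 for Mpo and 0.0239 for Plac8 in ST cells. Same-numbered tamoxifen and oil libraries had r of 0.0683 to 0.239 in MPPs, -0.0986 to -0.0122 in LT cells and -0.0715 to 0.13 in ST cells. Each ST library correlated best with the LT library of its own letter (0.11 to 0.153 under tamoxifen, 0.0812 to 0.164 under oil), a hint from the data and not from the design. Under tamoxifen every same-letter ST and LT pair was over 0.1, and no fit paired these libraries in the ST minus LT effect. Under oil, and between tamoxifen and oil in each population, not every pair was over 0.1. No paired analysis was possible for MPP against LT or ST cells in oil because these groups share no replicate numbers. Depth limits Ctsg and Elane in LT cells, which rest on 2 to 45 reads per group.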
